A study of Homo sapiens with 12 samples.

Results

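Tetrahydrobiopterin (BH4) is a small cofactor that nitric oxide synthases and the aromatic amino acid hydroxylases need in order to work. Cells make it from GTP in 3 steps: GTP cyclohydrolase 1 (GCH1) opens the pathway and usually limits its rate, 6-pyruvoyltetrahydropterin synthase (PTS) follows, and sepiapterin reductase (SPR) completes it. GCHFR is the regulatory protein through which BH4 inhibits and phenylalanine stimulates GCH1, and quinoid dihydropteridine reductase (QDPR) recycles the oxidised cofactor. The nitric oxide synthases NOS1 (neuronal), NOS2 (inducible) and NOS3 (endothelial) oxidise arginine to nitric oxide and citrulline, and inflammatory cytokines are known to induce GCH1, and in some cell types NOS2, in other settings.

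These 8 genes were followed through every array feature that the platform's gene table pairs with one of them alone. The rule gave 10 of the 54359 features on the array: 1 for each gene except NOS1 and NOS3, which had 2 each. Of these, 9 had values on enough arrays to be tested, at least 2 arrays in each group, among 53671 tested features in all. The remaining NOS1 feature (428087) carried the code for a missing value on all 12 arrays, so NOS1 rests on feature 268109.

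The cells were T-HESC, human endometrial stromal cells immortalised with telomerase, a single established line. Cultures were serum-starved for 24 h and then given vehicle, TNFα at 5 ng/ml, IL1β at 1 ng/ml, or TNFα at 5 ng/ml with IL1β at 1 ng/ml, for 48 h. Each of the 4 groups had 3 cultures, taken at passage 13 (replicate 1), passage 28 (replicate 2) and passage 15 (replicate 3), and each culture had its own single-colour CodeLink array. The question put by the submitters was which genes respond to TNFα with or without IL1β. Replicates were passages of one line, so p-values describe the spread between passages and not between donors.

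Values are intensities on a linear scale that lie relative to the array's own median, which was 1.01 on every array. Differences are on the log2 scale with standard errors from limma, and a feature was called at a Benjamini-Hochberg adjusted p under 0.05 over all tested features. Between 52944 and 53507 features per array had a positive value. On the first principal component of all features without the members (22.6% of the variance), vehicle replicate 3 (171), TNFα replicate 3 (68.7) and IL1β replicate 2 (53.0) lay at the high end, vehicle replicate 1 at −84.9 and the other 8 arrays between −33.8 and −18.2. The defining stromal markers were bright: all 6 measured (COL1A1, COL1A2, COL3A1, PDGFRB, THY1, NT5E) had a median above the 75th percentile of their arrays. VIM, DES, HOXA10 and HOXA11 were listed too but had no tested feature of their own. The summed stromal markers were 606 to 1912 with vehicle, 559 to 1368 with TNFα, 643 to 1308 with IL1β and 1008 to 1077 with both cytokines. Of 7 leukocyte markers 2 lay above the array median, CD68 and CD3E, and the pan-leukocyte PTPRC (0.0015 to 0.280) did not. Of 6 endothelial markers 2 lay above it, PECAM1 and TEK, and VWF, CDH5, KDR and CLDN5 did not. The summed intensity of the 7 epithelial markers was 87.5 to 122 with vehicle, 60.0 to 107 with TNFα, 26.8 to 65.2 with IL1β and 39.7 to 41.5 with both cytokines; 5 of the 7 lay above the array median, and the defining EPCAM did not. KRT19 made up most of that sum, with 66.3 to 97.3, 44.2 to 87.6, 13.9 to 51.1 and 30.4 to 30.8 in the same order of groups, and the other 6 summed to 20.6 to 24.5, 15.5 to 19.9, 12.9 to 14.1 and 9.23 to 10.7. The summed leukocyte markers were 5.58 to 9.76 with vehicle, 7.12 to 8.60 with TNFα, 5.98 to 9.23 with IL1β and 9.22 to 10.1 with both. The summed endothelial markers were 16.7 to 21.9, 17.7 to 20.6, 14.7 to 17.2 and 16.4 to 17.8 in the same order. The higher leukocyte sum with both cytokines lay in CD68, at 5.13 to 6.17 against 2.76 to 5.75 with vehicle. The other 6 leukocyte markers summed to at most 4.24 with both, within their vehicle range. PECAM1, the brightest endothelial marker, stood at 7.99 to 17.3 with vehicle and 10.48 to 11.96 with both. The part of these shifts in the results below was not tested, and in bulk RNA fewer cells of a type and less RNA per cell cannot be told apart.

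GCH1 was higher in every treated group than in vehicle and highest with both cytokines. Its intensity on the vehicle arrays was 0.0761, 0.162 and 0.161 (replicates 1 to 3). With TNFα it was 0.199, 0.364 and 0.311. With IL1β it was 0.324, 0.177 and 0.467, and with both cytokines 0.632, 0.907 and 0.857. All 3 arrays with both cytokines were brighter than any of the other 9, and all 6 single-cytokine arrays were brighter than any vehicle array, while the TNFα and IL1β arrays overlapped. The mean was 0.133 ± 0.049 with vehicle, 0.291 ± 0.084 with TNFα, 0.323 ± 0.145 with IL1β and 0.799 ± 0.147 with both (SD, n = 3). The lowest single-cytokine value, IL1β replicate 2 at 0.177, was close to the upper vehicle values.

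**Figure D1:**
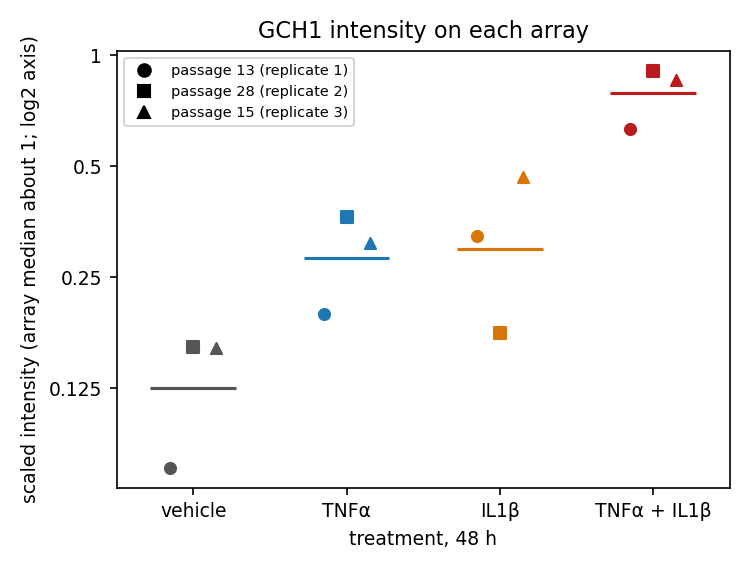
Scaled GCH1 intensity (array median about 1, log2 axis) on each of the 12 arrays by treatment; symbols mark the passage and lines the mean of the log2 values of 3 arrays. The vehicle arrays lie between 0.0761 and 0.162, the TNFα and IL1β arrays between 0.177 and 0.467, and the arrays with both cytokines between 0.632 and 0.907.

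With both cytokines GCH1 rose by 2.65 ± 0.42 against vehicle (SE, n = 3 per group; 95% confidence interval 1.72 to 3.58; limma adjusted p = 0.0399), a 6.28-fold difference. Within passages the difference was 3.05 in passage 13, 2.48 in passage 28 and 2.41 in passage 15. By p it ranked 107 among the 53671 features. GCH1 was the 1 call among the 9 member features in this comparison, where 0.248% of all tested features were called. The call was close to the threshold. With the passage as a block it missed (adjusted p = 0.0553), as it did in a fit of the compared groups alone (0.172), although the difference was 2.65 in both. Leaving out 1 array also ended it: adjusted p was 0.0805, 0.0661 and 0.0574 without vehicle replicate 1, 2 and 3, and 0.0920, 0.157 and 0.150 without replicate 1, 2 and 3 of both cytokines, with differences of 2.29 to 2.83. Without the 3 arrays at the high end of the first component the difference was 2.83 and adjusted p was 0.0632. It passed in 8 of 20 alternatives, namely the changes of scaling, offset, feature filter, variance prior and array weight, and its adjusted p over the 20 ran from 0.0119 to 0.311.

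**Figure D2:**
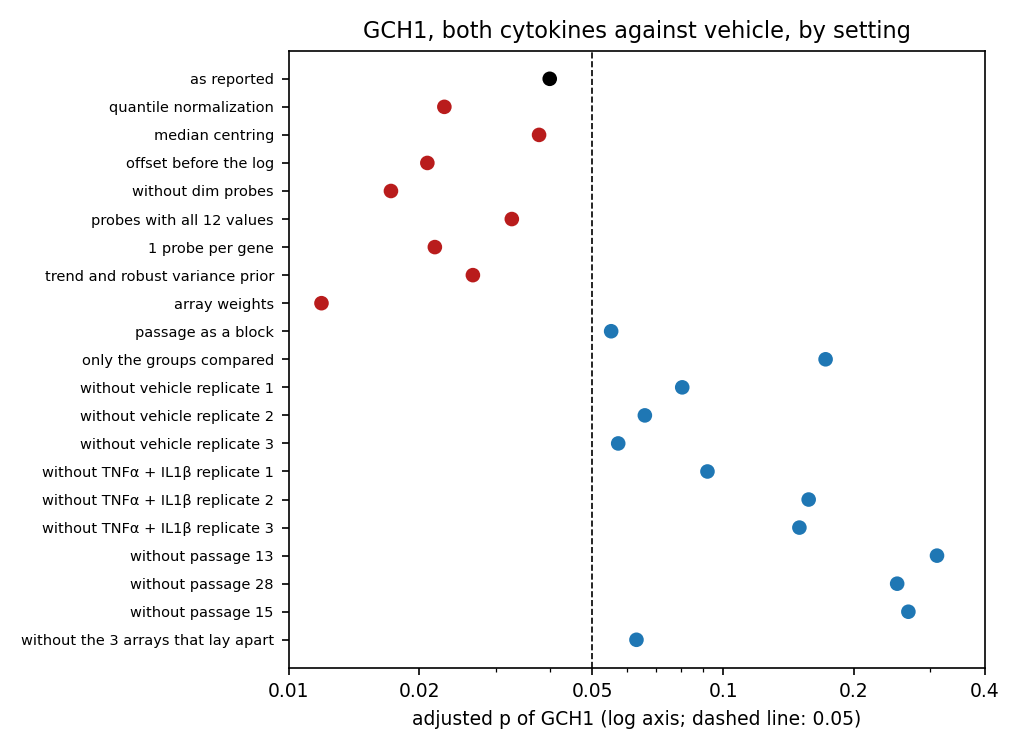
Adjusted p of GCH1 for both cytokines against vehicle (log axis) in the reported fit (black) and in 20 alternatives, red where it stayed under 0.05 (dashed line) and blue where it did not. The 8 settings that use all 12 arrays with other scaling, filters, priors or array weights lie under the line, and the 12 that add the passage or leave out groups or arrays lie above it.

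With single cytokines the GCH1 differences from vehicle were smaller and did not pass. TNFα gave 1.17 ± 0.42 (SE, n = 3 per group; interval 0.24 to 2.10; unadjusted p = 0.0188, limma adjusted p = 0.595) and IL1β gave 1.25 ± 0.42 (interval 0.32 to 2.18; unadjusted p = 0.0133, limma adjusted p = 0.438). TNFα against vehicle gave 1.39, 1.17 and 0.95 in passages 13, 28 and 15, positive in each. IL1β against vehicle gave 2.09, 0.13 and 1.54, so passage 28 stood near 0. These comparisons share the vehicle arrays.

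The 2 single-cytokine groups did not differ beyond their spread: TNFα minus IL1β was −0.08 ± 0.42 (interval −1.01 to 0.85; limma adjusted p = 0.994). Adding IL1β to TNFα gave 1.48 ± 0.42 (unadjusted p = 0.00516, limma adjusted p = 0.887) and adding TNFα to IL1β gave 1.40 ± 0.42 (unadjusted p = 0.00724, limma adjusted p = 0.979), neither past the threshold, with no overlap of arrays in either and the same sign in all 3 passages. The interaction, which asks whether the response to one cytokine depends on the other, was 0.23 ± 0.59 (interval −1.08 to 1.55; limma adjusted p = 1.00 to 3 digits), an interval that holds both less and more than additive responses on the log2 scale. From lowest to highest the GCH1 means ran vehicle, TNFα, IL1β, both cytokines. No step between neighbours in that order passed the threshold, and TNFα and IL1β were the neighbours whose arrays overlapped.

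GCH1 was a dim feature. Its intensity lay between percentiles 4.14 and 17.5 of the features on the vehicle arrays, 23.8 and 33.4 with TNFα, 20.2 and 35.5 with IL1β and 41.1 and 47.4 with both cytokines, under the array median throughout. The files hold no detection calls, so whether the vehicle values stand above background is not known. After an offset of 0.0678 was added before the log the difference with both cytokines was 2.13 in place of 2.65.

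GCHFR, whose product feeds BH4 levels back on GCH1, was dimmer still and varied more. Its vehicle values were 0.160, 0.0486 and 0.463 and its TNFα values 0.286, 0.147 and 0.263. With IL1β it was 0.144, 0.193 and 0.0686, and with both cytokines 0.0755, 0.0991 and 0.0339. The vehicle arrays alone spanned nearly the whole range of the other groups, so they overlapped with every group. Against vehicle GCHFR gave −1.28 ± 0.75 with both cytokines (interval −2.95 to 0.40; limma adjusted p = 0.509). Within passages it was −1.08, 1.03 and −3.77, so the sign was not the same in all 3, and without 1 array or passage the estimate ran from −2.43 to −0.026. All 3 arrays with both cytokines were lower than any TNFα array (−1.81 ± 0.75, unadjusted p = 0.0366, limma adjusted p = 0.977). Within passages the difference from TNFα was −1.92, −0.56 and −2.96. None of the GCHFR differences passed.

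The later steps of BH4 synthesis and its recycling showed no call in any comparison. PTS was a bright feature, between percentiles 91.3 and 98.0 of its arrays. It stood at 19.2, 41.8 and 69.1 with vehicle, 36.5, 32.5 and 63.7 with TNFα, 38.9, 53.9 and 28.1 with IL1β and 39.5, 36.9 and 35.3 with both cytokines. Its 3 highest values fell on the 3 arrays at the high end of the first component and its lowest on vehicle replicate 1, at the low end; the part of that axis in PTS was not tested. Against vehicle PTS gave 0.15 ± 0.45 with TNFα, 0.03 ± 0.45 with IL1β and −0.04 ± 0.45 with both, where the interval ran from −1.03 to 0.96. Without those 3 arrays the last became 0.39.

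SPR, which catalyses the last step, stood at 2.40, 2.28 and 1.80 with vehicle and at 2.10, 1.64 and 1.83 with both cytokines, a difference of −0.21 ± 0.25 (interval −0.77 to 0.34; limma adjusted p = 0.767). With TNFα it was 2.24, 2.85 and 1.63 and with IL1β 2.10, 1.45 and 1.68, and all groups overlapped with vehicle. QDPR stood at 12.9, 20.8 and 16.5 with vehicle, 15.9, 17.9 and 16.6 with TNFα, 12.6, 16.2 and 11.8 with IL1β and 14.1, 12.3 and 11.7 with both cytokines. All 3 QDPR values with both cytokines were lower than any with TNFα (−0.41 ± 0.22, limma adjusted p = 0.981), and they overlapped with vehicle (−0.37 ± 0.22, interval −0.85 to 0.11, limma adjusted p = 0.498). For the SPR and QDPR features the interval against vehicle with both cytokines does not hold a change of the size seen for GCH1. Without detection calls, it is not known whether the SPR feature stood above background.

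**Figure D3:**
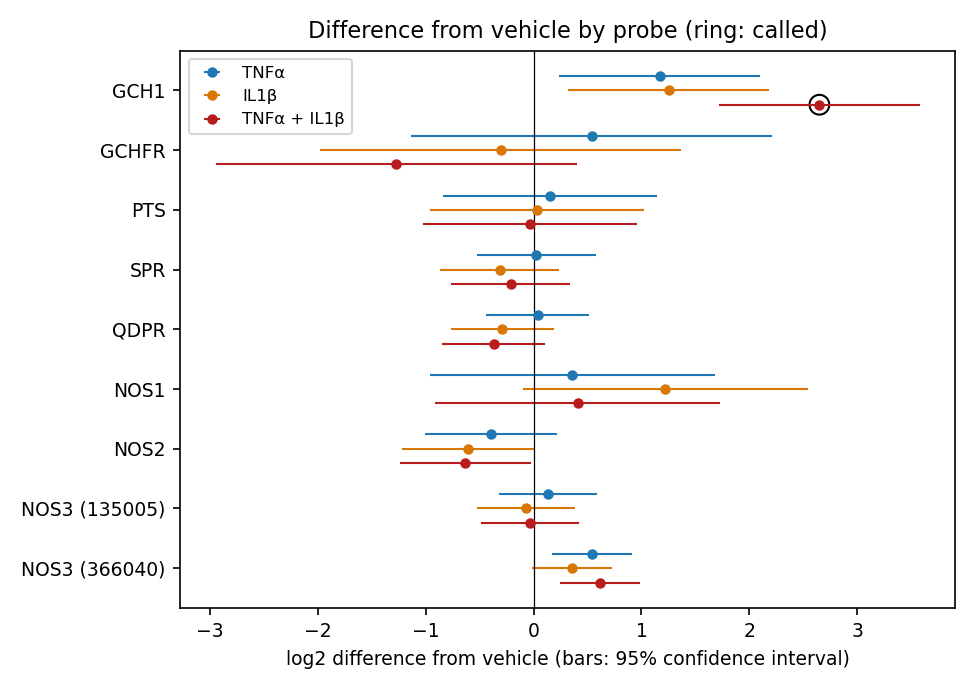
Log2 difference from vehicle of each tested feature with TNFα, IL1β or both cytokines (points; bars are 95% confidence intervals from limma, n = 3 per group), with a ring on the called value. GCH1 with both cytokines, at 2.65, is the ringed one, and the intervals of GCHFR and NOS1 are the widest.

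NOS2, the inducible synthase, had a lower mean with each cytokine treatment than with vehicle, and no difference passed. Its vehicle values were 1.76, 3.72 and 3.32, its TNFα values 1.86, 2.46 and 2.09, its IL1β values 2.13, 1.71 and 1.69 and its values with both cytokines 1.82, 1.94 and 1.65. Vehicle replicates 2 and 3 were above all 9 treated arrays, while vehicle replicate 1 lay among them, so vehicle overlapped with each group. The differences from vehicle were −0.40 ± 0.27 with TNFα, −0.61 ± 0.27 with IL1β and −0.63 ± 0.27 with both (interval −1.24 to −0.02; unadjusted p = 0.0435, limma adjusted p = 0.370). Within passages the last was 0.05, −0.94 and −1.01. It did not pass except with array quality weights (−0.90, adjusted p = 0.0488). The upper ends of the intervals for TNFα, IL1β and both were 0.21, 0.00 and −0.02, under the GCH1 differences in the same comparisons. Without detection calls, it is not known whether the NOS2 feature stood above background. These intervals therefore cannot exclude an increase of the NOS2 transcript.

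NOS3, the endothelial synthase, had 2 features, both annotated to the same transcript, which gave different values; the difference between them was not tested. Feature 366040 stood at 0.640, 0.873 and 0.709 with vehicle, 1.00, 1.16 and 1.05 with TNFα, 0.952, 0.956 and 0.917 with IL1β and 1.10, 1.14 and 1.13 with both cytokines. Every treated array was brighter than every vehicle array. The differences from vehicle were 0.54 ± 0.17 with TNFα (unadjusted p = 0.00885, limma adjusted p = 0.511), 0.36 ± 0.17 with IL1β (unadjusted p = 0.0577, limma adjusted p = 0.530) and 0.62 ± 0.17 with both (unadjusted p = 0.00413, limma adjusted p = 0.186). They were positive in all 3 passages and none passed. The brighter feature 135005 stood at 1.80, 2.40 and 2.15 with vehicle, 2.30, 2.53 and 2.10 with TNFα, 2.35, 1.58 and 2.16 with IL1β and 2.02, 1.88 and 2.26 with both. It overlapped with vehicle in each treated group and gave −0.04 ± 0.20 with both (interval −0.49 to 0.42). That interval does not hold the 0.62 of feature 366040, but it overlaps with the interval around that value, 0.24 to 0.99.

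NOS1, the neuronal synthase, was dim, at 0.199, 0.111 and 0.370 with vehicle, 0.314, 0.151 and 0.361 with TNFα, 0.495, 0.618 and 0.337 with IL1β and 0.450, 0.367 and 0.116 with both cytokines. All groups overlapped with vehicle. The largest difference was 1.22 ± 0.59 with IL1β (interval −0.10 to 2.54; unadjusted p = 0.0664, limma adjusted p = 0.548). Within passages it was 1.31, 2.48 and −0.13.

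**Figure D4:**
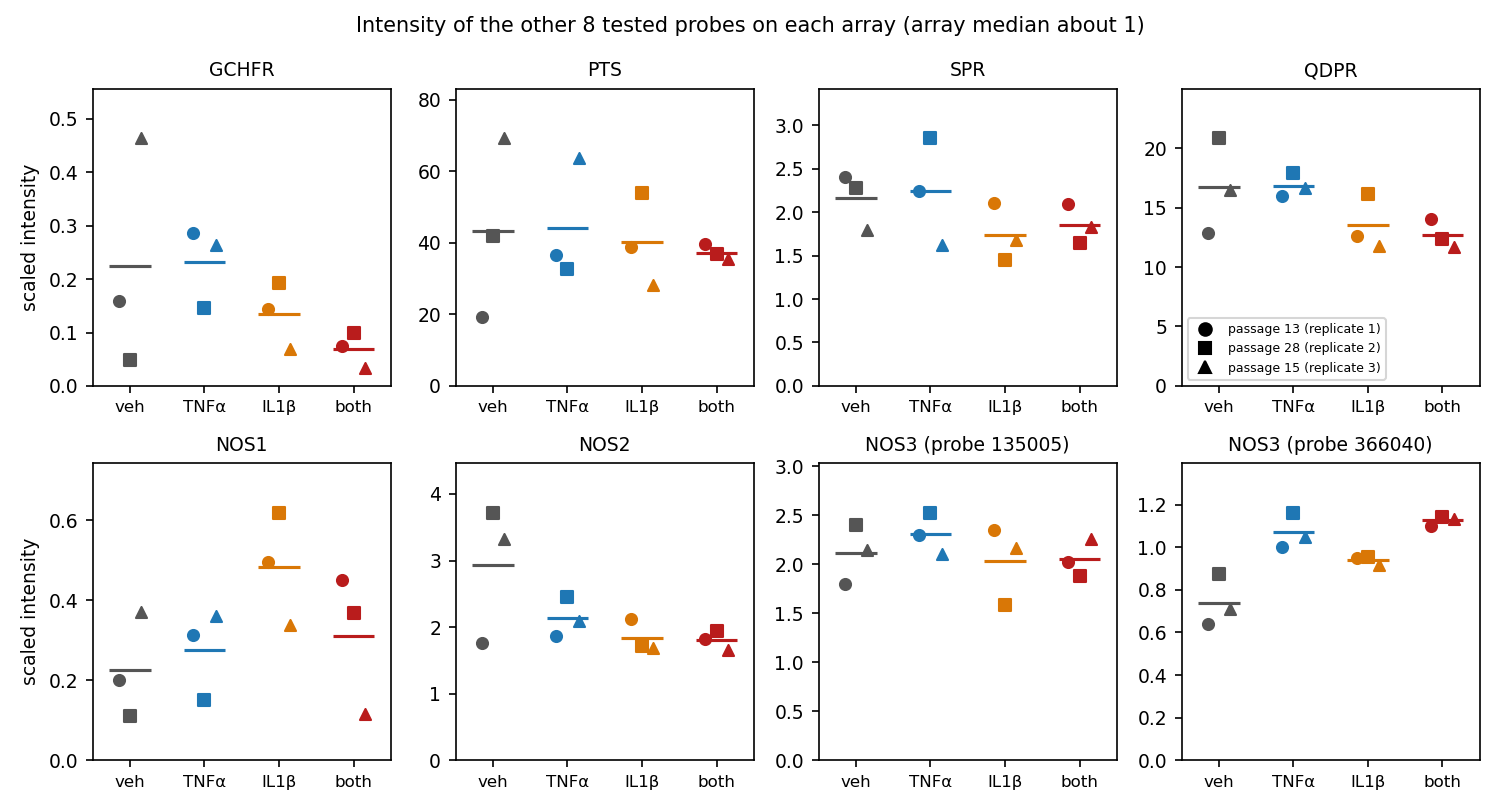
Scaled intensity (linear axis from 0) of the other 8 tested features on each array by treatment (veh is vehicle, both is TNFα with IL1β); symbols mark the passage and lines the mean of 3 arrays. The vehicle arrays of GCHFR, PTS and NOS2 spread widely, and NOS3 feature 366040 is the panel in which every treated array lies above every vehicle array.

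Counted together, the member features gave few calls, as did the arrays as a whole. With TNFα limma called 0 of 9 (2 at an unadjusted p under 0.05), where 0.0466% of all features were called and 7.05% had an unadjusted p under 0.05. With IL1β it called 0 of 9 (1 unadjusted), against 0.00559% of all features called and 9.67% unadjusted. With both cytokines 3 of 9 had an unadjusted p under 0.05, against 12.9% of all features. For both cytokines against TNFα it called 0 of 9 (2 unadjusted), against 0.00186% of all features called and 5.08% unadjusted. For both against IL1β it called 0 of 9 (1 unadjusted), against 0.00% of all features called and 4.37% unadjusted. TNFα against IL1β and the interaction gave 0 of 9 each with limma, with 0 at an unadjusted p under 0.05; 0.00% of all features were called in each, and 5.04% and 3.59% had an unadjusted p under 0.05. GCH1 and NOS3 feature 366040 were the 2 of 9 features whose arrays did not overlap with vehicle, for TNFα (10.6% of all features did not overlap), for IL1β (13.5%) and for both cytokines (21.9%). For both cytokines that share, 22.2%, is near the share over all features. Both cytokines and TNFα did not overlap in 3 of 9 (21.2% of all features), GCH1 higher and GCHFR and QDPR lower. Both cytokines and IL1β did not overlap in 2 of 9 (14.8%), GCH1 and NOS3 feature 366040, both higher. The median difference of the 9 features from vehicle with both cytokines was −0.04, against −0.13 over all features.

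Around these genes, 6 lists of pathway genes with 45 members were looked up, of which 32 had a feature of their own. limma called 0 of the 32 in all 7 comparisons. At an unadjusted p under 0.05 there were 4 of 32 with TNFα, 4 with IL1β and 6 with both cytokines against vehicle, where the shares over all features were 7.05%, 9.67% and 12.9%. With both cytokines, 5 genes were higher and 3 lower on all 3 arrays than on any vehicle array, 8 of 32, where 21.9% of all features did so. Among 3 other genes of BH4 synthesis and recycling the lowest p belonged to the dehydratase PCBD2 (−0.26 ± 0.24, limma adjusted p = 0.691). Of 5 GTP supply genes (median −0.34) it was the IMP dehydrogenase IMPDH2, which stood at 137 to 158 with vehicle and 89.2 to 96.1 with both (−0.69 ± 0.18, limma adjusted p = 0.169). Of 3 BH4-dependent hydroxylases it was the tryptophan hydroxylase TPH1 (0.32 ± 0.23, limma adjusted p = 0.592). Of 4 proteins that bind NOS it was the chaperone HSP90AA1 (−0.36 ± 0.19, limma adjusted p = 0.468), and of 7 genes of the cGMP branch, through which nitric oxide signals, the guanylate cyclase subunit GUCY1B1 (1.03 ± 0.39, limma adjusted p = 0.312).

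Of the 10 measured genes of the arginine list (median 0.05) PRMT1, an arginine methyltransferase, had the lowest p; it stood at 12.7 to 23.2 with vehicle and 28.8 to 30.9 with both cytokines (0.86 ± 0.23, limma adjusted p = 0.184). SLC7A2 and ASS1 were singled out after their values were seen. SLC7A2, a cationic amino acid transporter that brings arginine into the cell, stood at 1.12 to 6.73 with vehicle, 5.12 to 23.7 with TNFα, 6.23 to 10.2 with IL1β and 8.45 to 53.7 with both (2.83 ± 0.82, limma adjusted p = 0.215). ASS1, which with ASL rebuilds arginine from citrulline, stood at 5.29 to 12.9 with vehicle, 5.16 to 10.6 with TNFα, 6.63 to 9.87 with IL1β and 14.0 to 18.5 with both (0.92 ± 0.36, limma adjusted p = 0.321). The ASS1 differences from vehicle with TNFα and IL1β alone were −0.12 and 0.01, and its interaction was 1.04 ± 0.51 (unadjusted p = 0.0665, limma adjusted p = 1.00 to 3 digits). None of these passed.

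The genes whose pattern over the 12 arrays was most like that of GCH1 were found by Pearson correlation of log2 values among 16994 genes with values on all arrays. They were ANGPTL7, an angiopoietin-like secreted protein (r = 0.934), FGFBP2 (r = 0.923), UNC5CL (r = 0.920), TNFAIP6, a hyaluronan-binding protein (r = 0.912), and the cytokine IL6 (r = 0.910). The 99th percentile of r over these genes was 0.764 and the median −0.08. The arrays share their treatment groups, so any gene that is low in vehicle and high with both cytokines correlates. IL6 ran from 4.55 to 10.7 with vehicle, 9.45 to 13.0 with TNFα, 9.27 to 19.9 with IL1β and 41.0 to 66.5 with both. TNFAIP6 ran from 33.4 to 55.7, 54.0 to 67.1, 55.5 to 84.0 and 156 to 159 in the same order. Against vehicle with both cytokines IL6 gave 3.00 and TNFAIP6 1.76 (limma adjusted p = 0.0134 and 0.0195). ANGPTL7 gave 0.79 and UNC5CL 0.78, and neither was called (limma adjusted p = 0.164 and 0.159). FGFBP2 gave 1.51 (limma adjusted p = 0.0394) and was dim, at 0.186 to 0.280 with vehicle and 0.644 to 0.744 with both. All 5 genes were picked for their likeness to GCH1 on these same arrays. Their adjusted p-values are therefore no separate support for a response.

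Promoter sequence was looked up in RefSeq windows of 300 bases around a transcription start (GRCh38.p14), which 6 of the 8 members matched. GCH1 and NOS2 were the others. The NOS1 window (chr12:117309361-117309660, minus strand) lay inside the gene, whose outermost start is at 117361626. The NOS3 windows, from 150993532 and 150993554 on chr7, also lay inside the gene, which starts at 150991017. Matches in NOS1 and NOS3 are therefore not at the outermost start. The windows were searched on both strands for the kappa-B consensus bound by NF-kB, the cyclic AMP response element TGACGTCA, the CCAAT box, AP-1 (TGANTCA), GAS (TTCNNNGAA) and C/EBP (TTGCNNAA). NF-kB is a factor that both cytokines activate, though not the only such factor, and the 2 kappa-B matches are shown. They are on the strand of the gene with the match in capitals and 12 flanking bases on either side. In NOS3 the capitals are the reverse complement of the motif. The printed QDPR stretch spans chr4:17512195-17512228 (minus strand) and the printed NOS3 stretch chr7:150993689-150993722 (plus strand).
QDPR: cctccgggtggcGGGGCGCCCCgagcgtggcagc
NOS3: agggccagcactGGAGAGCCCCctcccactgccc
Of all 34943 windows 11.3% held a kappa-B match. A CCAAT box lay in the windows of GCHFR and PTS (34.6% of all windows) and an AP-1 match in that of NOS1 (7.72%). The SPR window held no match to any of the 6, and no member window matched the cyclic AMP, GAS or C/EBP motifs. These matches describe letters in a window and not binding.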

How the data were processed

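The deposited table holds linear intensities of 12 CodeLink single-colour arrays. That the authors scaled each array to its median is inferred from the values; image analysis, background correction and normalization were not given in the sources used here. The code −9999 (0.716% of values) and values at or below 0 (1.10%) were set to missing before log2. Features with values on at least 2 arrays of each group were tested. Symbols came from the platform's gene table, updated by Entrez identifier; a listed gene was represented by its single-gene feature with the highest mean. One limma model (version 3.58.1, R 4.3.3) with 4 group means was used for every comparison, with two-sided moderated tests and Benjamini-Hochberg adjustment over 53671 features. The script was tested on simulated data.

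Members, lists and alternatives were chosen with earlier results of these data known. The text names every member feature, from each list the called genes or else the one with the lowest p with both cytokines, and the 5 genes most correlated with GCH1. Replicate numbers stand for passages in the labels, which pairs the arrays. Residuals from the group means correlated by 0.0071 on average between arrays of one passage (18 pairs, −0.196 to 0.310). Between passages the average was −0.0029 (36 pairs, −0.277 to 0.291). Taking out the group means nearly fixes the second average once the first is known. The averages therefore cannot decide whether the pairing matters. The alternatives changed the scaling (quantile or median), added an offset of 0.0678, or used filters on dim or incomplete features, 1 feature per gene, a trended robust prior, array weights (gene by gene), the passage as a block, the compared groups alone, and leaving out arrays or passages.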

Additional observations from a re-analysis of the deposited data

How the results depend on the processing

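For both cytokines against vehicle, the GCH1 difference kept its sign in all 20 alternatives and its call in 8; without 1 array or 1 passage it was 2.29 to 2.83. It missed with the passage as a replicate block (adjusted p = 0.0553), in the compared groups alone (0.172) and without the 3 arrays at the high end of the first component (2.83, adjusted p = 0.0632). The block changed no other member's call. The other features, in the 26 differences with alternatives, were called in 1 of 513 values (NOS2 with array weights), and 11 of the 26 took the opposite sign somewhere. Counts of called features with limma moved as follows. TNFα against vehicle gave 25, and 51 with the offset, 52 without dim features, 57 with the trended prior, 48 with array weights, 13 with the replicate block, 0 in the compared groups alone (2680 at an unadjusted p under 0.05), 0 without the 3 arrays (5945) and 0 to 42 without 1 array or passage. IL1β gave 3, and 8 with the trended prior, 7 with weights, 0 in the compared groups alone (2948), 0 without the 3 arrays (7277) and 0 to 3 without 1 array or passage. Both cytokines against vehicle gave 133, and 235 without dim features, 219 with the trended prior, 1677 with weights, 88 with the block, 24 in the compared groups alone, 77 without the 3 arrays and 4 to 137 without 1 array or passage. Both against TNFα gave 1, and 2 with quantile normalization, 3 with the offset, 3 without dim features, 2 with the trended prior, 56 with weights, 0 with the block (2592), 0 in the compared groups alone (5497) and 0 to 0 without 1 array or passage. Both against IL1β gave 0 (2347 unadjusted), and 50 with weights and 1 without the 3 arrays. TNFα against IL1β gave 0 (2706 unadjusted), and 4 with weights and 0 to 5 without 1 array or passage; the interaction gave 0 (1927 unadjusted) and 0 to 1. Signs turned with array weights for PTS with TNFα (−0.044), QDPR with TNFα (−0.20), GCHFR with IL1β (0.53) and PTS with IL1β (−0.22). They turned without the 3 arrays for GCHFR with IL1β (0.17), NOS3 feature 135005 with IL1β (0.12), PTS with both (0.39) and the GCH1 interaction (−0.26). With quantile normalization they turned for PTS with both (0.29), GCH1 in TNFα against IL1β (0.0040) and the GCH1 interaction (−0.16). Without 1 array or passage the TNFα differences ran from −0.29 to 1.34 for GCHFR, −0.35 to 0.58 for PTS, −0.17 to 0.24 for SPR, −0.14 to 0.21 for QDPR and −0.074 to 0.80 for NOS1. The IL1β differences ran from −1.45 to 0.92 for GCHFR, −0.47 to 0.69 for PTS and −0.30 to 0.20 for NOS3 feature 135005. With both they ran from −0.58 to 0.43 for PTS, −0.25 to 1.45 for NOS1 and −0.15 to 0.12 for NOS3 feature 135005. GCH1 ran from −0.65 to 0.24 in TNFα against IL1β and from −0.25 to 0.59 in the interaction. The cause of these shifts was not tested. GCHFR had no value without dim features, nor NOS3 feature 366040 with 1 feature per gene. Leaving out 1 array can leave a group with 2; the spread is then pooled over all groups. Without detection calls, it is not known how far the dim features GCH1, GCHFR and NOS1 stood above background. The same holds for NOS3 feature 366040, which lay between percentiles 41.2 and 52.0 of its arrays. It also holds for SPR (percentiles 56.5 to 67.9), NOS2 (58.5 to 71.3) and NOS3 feature 135005 (58.2 to 65.8).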
